A study of Mus musculus with 45 samples.

Results

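The genes described here are the nuclear genes for oxidative phosphorylation in a bulk RNA-seq table of mouse embryonic stem cells differentiating towards spinal cord cells. They were taken by name, as the rows whose gene symbol begins with Ndufa, Ndufb, Ndufc, Ndufs or Ndufv, with Uqcr, with Cox followed by a digit from 4 to 8, or with Atp5, or is one of Sdha, Sdhb, Sdhc and Sdhd. The rule found 24 of the 11220 genes in the table. By their known roles, 8 are accessory subunits of complex I, 3 are complex I assembly factors (Ndufaf3, Ndufaf4 and Ndufaf5), 2 belong to complex III, 4 to complex IV and 4 to ATP synthase. The label of subunits does not cover all of them: besides the assembly factors, Cox7a2l joins complexes III and IV into supercomplexes, and Atp5s and Atp5sl carry ATP synthase names but are not subunits of it. Atp5sl is now called Dmac2 and is known as an assembly factor for the membrane arm of complex I. No complex II gene and no gene of the mitochondrial genome was among the rows analysed here.

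Oxidative phosphorylation is the last stage of respiration. Complexes I to IV in the inner mitochondrial membrane pass electrons from NADH and succinate to oxygen, and all of them but complex II pump protons. ATP synthase uses the proton gradient to make ATP. A few core subunits are encoded in the mitochondrial DNA, while the genes described here lie in the nucleus and their proteins are imported. Pluripotent stem cells are known for a high glycolytic rate, and neurons for a strong dependence on respiration. Several subunits also exist in tissue-specific isoforms, among them Cox7a1 in heart and skeletal muscle and Cox6b2 in testis.

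The 45 libraries formed 15 groups of 3, all from adherent cultures of mouse embryonic stem cells. D0 stands for the undifferentiated cells, and D3 for day 3 neuromesodermal progenitors obtained with bFGF and CHIR. Cells of the R series then had retinoic acid (RA) at 100 nM as the sole added signal, with samples at day 4 (R4), 6 h after that (R6hr) and days 5, 7 and 9 (R5, R7, R9). Cells of the B series had a first step of 24 h in RA and a second step of 24 h in which BMP4 at 10 ng/ml was added to the RA, with samples 6 h into the second step (B6hr) and at days 5, 7 and 9 (B5, B7, B9). Cells of the M series had both factors at the same doses for 48 h starting at day 3, with samples at days 4, 5, 7 and 9 (M4, M5, M7, M9). The labels give the RA interval of the R groups in ways that differ by 1 day. The sample titles of the day 7 and day 9 groups place the treatment of all 3 series between days 3 and 5. By these titles the day 7 and day 9 samples were taken after the treatment had ended. The cultures came from 3 independent differentiations, but the labels do not say which library belongs to which, so the p-values below measure only the spread between these libraries.

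Levels are the authors' normalized values with no stated unit, not adjusted for gene length as far as the sources show, so they are compared between samples and never between genes. The depth of each library is unknown, and 3 libraries a group limit the precision. Genes entered the deposited table when the authors' false discovery rate was under 0.1 in at least 1 of 12 comparisons among treated groups. All 24 genes met this: 14 in B9 against M9, 8 in B7 against M7, and 17 of the 24 in exactly 1 comparison. The rule also matches 96 protein-coding symbols in RefSeq, and those not in the table are not analysed here. A changed gene is one with a limma adjusted p under 0.05, adjusted over all 11220 genes, on log2(level + 1), and the share of all 11220 genes that passed is given beside each first count. Comparisons that the authors used to select the table (those of M4 with R4, of B with R groups, and of M5, M7 and M9 with B groups of the same day) are given as descriptions, because a gene could be in the table only by passing 1 of these or 4 comparisons between early times. M5, M7 and M9 were not compared with R groups there, but they entered the selection through the B groups. Results of M against R on these days therefore share levels with the selection.

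Some libraries stood apart from others of their group in cell type markers. The summed level of 5 pluripotency markers was 13218, 12220 and 71933 in the D0 libraries numbered 1, 2 and 3, and the summed level of 6 neuronal markers was 2601, 16276 and 16330 in the D3 libraries. The pluripotency sum was 2546 to 6314 in D3. The 6 neuronal markers summed to 13586, 17454 and 10272 in the libraries labelled undifferentiated. The summed level of 5 mesenchymal markers was 17231, 18336 and 5663 in the D0 libraries and 1097, 14917 and 18440 in the D3 libraries. The count and some of the changes between D0 and D3 are therefore also given without D0 library 3 and D3 library 1. Leaving these out keeps the libraries with the high mesenchymal sums in both groups, so it does not show whether a change holds in libraries with low sums. At day 9 the neuronal sum was 14378 to 17286 in B9, 5506 to 11191 in R9 and 1865 to 3122 in M9. The pluripotency sum was 3572 to 8400 in B9, 4163 to 8344 in R9 and 659 to 1354 in M9. The part of these differences in the results below was not tested, and in bulk RNA fewer cells of a type and less RNA per cell cannot be told apart.

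Across the 15 groups the respiratory genes moved little. The gap between the highest and the lowest group mean had a median of 0.63 on the log2 scale for the 24 genes, against 1.51 for all 11220 genes, and was under 1 (less than a doubling) in 20 of the 24, or 83.3%, against 33.8% of all genes. Cox7a1 had the widest gap, 2.12, followed by Cox6b2 at 1.16, Atp5sl at 1.10 and Atp5g1 at 1.08. Ndufb3, an accessory subunit of complex I, had the narrowest, 0.28. D0 was the group with the highest mean for 11 of the 24 genes (45.8%, against 16.4% of all genes). M9 was the lowest for 5 of them, Cox5a, Cox6a1, Uqcrc1, Ndufa6 and Ndufaf3 (20.8%, against 3.89% of all genes), and B9 was the lowest for another 4, Atp5e, Atp5j, Atp5j2 and Ndufa2 (16.7%, against 8.62%). Of the genes named for M9 and B9, all but Cox5a had a deposited false discovery rate under 0.1 between day 9 groups. Their day 9 levels thus had a part in their being listed, and the shares for M9 and B9 are given as descriptions.

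**Figure D1:**
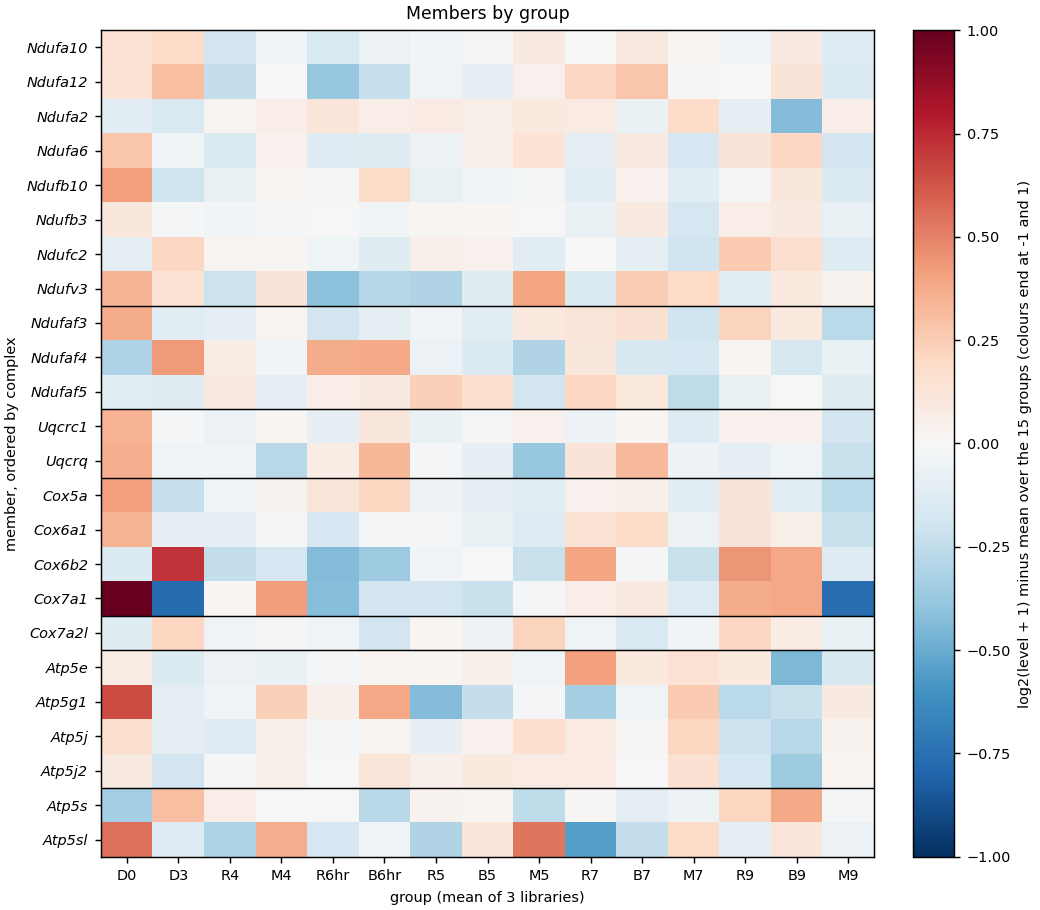
Mean log2(level + 1) of each of the 24 genes in the 15 groups (3 libraries each), drawn as the difference from that gene's mean over the groups; rows are ordered by complex, and colours end at -1 and 1. D0 is red for most rows, Cox7a1 spans the widest range (2.12), and M9 is blue for most complex I and IV rows.

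Between stem cells and day 3 progenitors, 17 of the 24 genes passed the test, more than in any other comparison made. In D3, 5 were higher and 12 lower than in D0, where 54.9% of all genes passed, 30.9% as higher and 24% as lower. Of the complex IV subunits 3 of 4 fell and Cox6b2 rose, both complex III genes fell, and 2 of 4 ATP synthase subunits fell. Of the 8 complex I subunits 3 fell and 1 rose. The median change of the 24 genes was -0.24, against 0.07 for all genes. With D0 library 3 and D3 library 1 left out, 18 passed. The calls for Atp5j, Uqcrq, Ndufv3 and Ndufc2 each ended without some single library, and the other 13 held without any one of the 6.

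Cox7a1, the muscle isoform of a small complex IV subunit (chr7:30184144-30186078, plus strand, mm10), stood at 64.6, 48.7 and 101 in the D0 libraries and at 13.6, 14.7 and 16.9 in the D3 libraries. The groups did not overlap, and even the lowest D0 library was above every D3 library. Cox7a1 fell by 2.12 on the log2 scale (SE 0.33, limma adjusted p = 2.4e-06), and the change was -1.77 without D0 library 3 and D3 library 1 (adjusted p = 5.2e-04). Cox5a, a subunit of complex IV found in all tissues, stood at 3641, 4102 and 4195 in D0 and at 2858, 2410 and 2431 in D3. All D0 libraries were above all D3 libraries, and Cox5a fell by 0.63 (SE 0.12, limma adjusted p = 3.4e-05). Cox6a1, the non-muscle isoform of another complex IV subunit, fell by 0.42 (SE 0.08, limma adjusted p = 7e-05).

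Cox6b2, the isoform first known from testis (chr7:4751792-4753094, minus strand), moved the other way. Its levels were 505, 441 and 573 in D0 and 670, 1068 and 1077 in D3. All D3 libraries were above D0, and D3 library 1, which also had the low neuronal sum, was the lowest of the 3. Cox6b2 rose by 0.86 (SE 0.15, limma adjusted p = 7.7e-06), and by 1.18 with the 2 libraries left out. Cox7a2l rose by 0.33 (SE 0.08, limma adjusted p = 8.9e-04), a call that ended at adjusted p = 0.053 after quantile normalization.

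Among complex I subunits, Ndufb10 fell by 0.61 (SE 0.08, limma adjusted p = 1.7e-07), from levels of 2063, 2376 and 2288 in D0 to 1447, 1455 and 1487 in D3. The 3 D3 libraries lay within a narrow band below all D0 libraries. Ndufa6 and Ndufv3 also fell, by 0.32 and 0.19, and Ndufc2 rose by 0.30, a call lost after quantile normalization (0.19, adjusted p = 0.14). The assembly factors split: Ndufaf4 rose by 0.72 (SE 0.17, limma adjusted p = 4.4e-04) and its known partner in early complex I assembly, Ndufaf3, fell by 0.48 (SE 0.12, limma adjusted p = 7.2e-04).

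Both complex III genes fell. Uqcrc1, a core protein of the complex, stood at 6878, 7291 and 8472 in D0 and at 6301, 5609 and 5555 in D3, without overlap, a fall by 0.37 (SE 0.11, limma adjusted p = 4.3e-03). Uqcrq, a small subunit, fell by 0.39. Of the 4 ATP synthase subunits, Atp5g1 and Atp5j passed. Atp5g1, which encodes a form of the c subunit of the rotor ring, stood at 837, 979 and 1058 in D0 and at 618, 575 and 520 in D3, and fell by 0.74 (SE 0.23, limma adjusted p = 6.2e-03). Its groups did not overlap, but 12 other genes have stretches at least 95% identical to its long annotated transcript over at least 100 bases, so reads could be shared. Atp5sl fell by 0.67 (limma adjusted p = 4.4e-06) and Atp5s rose by 0.64 (limma adjusted p = 6.2e-04).

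During the first day of RA alone, 5 of the 24 genes passed in R4 against D3, all lower in R4, where 24.3% of all genes passed in either direction and 12.6% as lower. Cox6b2 stood at 534, 398 and 492 in R4, below all D3 libraries, and fell by 0.96 (SE 0.15, limma adjusted p = 8.5e-06). The D3 level of Cox6b2 was thus higher than that of the groups on both sides of it. Ndufa12, a small complex I subunit, went from 1237, 1309 and 1352 in D3 to 911, 844 and 921 in R4. These groups did not overlap, and Ndufa12 fell by 0.54 (SE 0.08, limma adjusted p = 1.9e-06). Ndufa10 fell by 0.37, Ndufv3 by 0.36 and Cox7a2l by 0.24, of which the call for Cox7a2l alone ended without some single library. Ndufa12 and Cox7a2l each have 1 near-identical other gene in the annotation.

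Ndufv3 and Atp5sl were higher in M than in R groups at days 4, 5 and 7. Ndufv3 encodes an accessory subunit at the NADH-oxidizing end of complex I (chr17:31520115-31531331, plus strand), and Atp5sl lies at chr7:25619414-25625551, also on the plus strand. Neither passed in M9 against R9, and neither passed after 6 h of BMP4 in B6hr against R6hr. In the authors' deposited table Ndufv3 had false discovery rates of 0.039 in M4 over R4 and 7.5e-05 in M5 over B5. Atp5sl had rates of 1.7e-04 and 0.03 there, and of 0.021 in M7 over B7. High levels in M groups thus had a part in both being listed. The p-values against R5 and R7 below are not free of that selection.

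**Figure D2:**
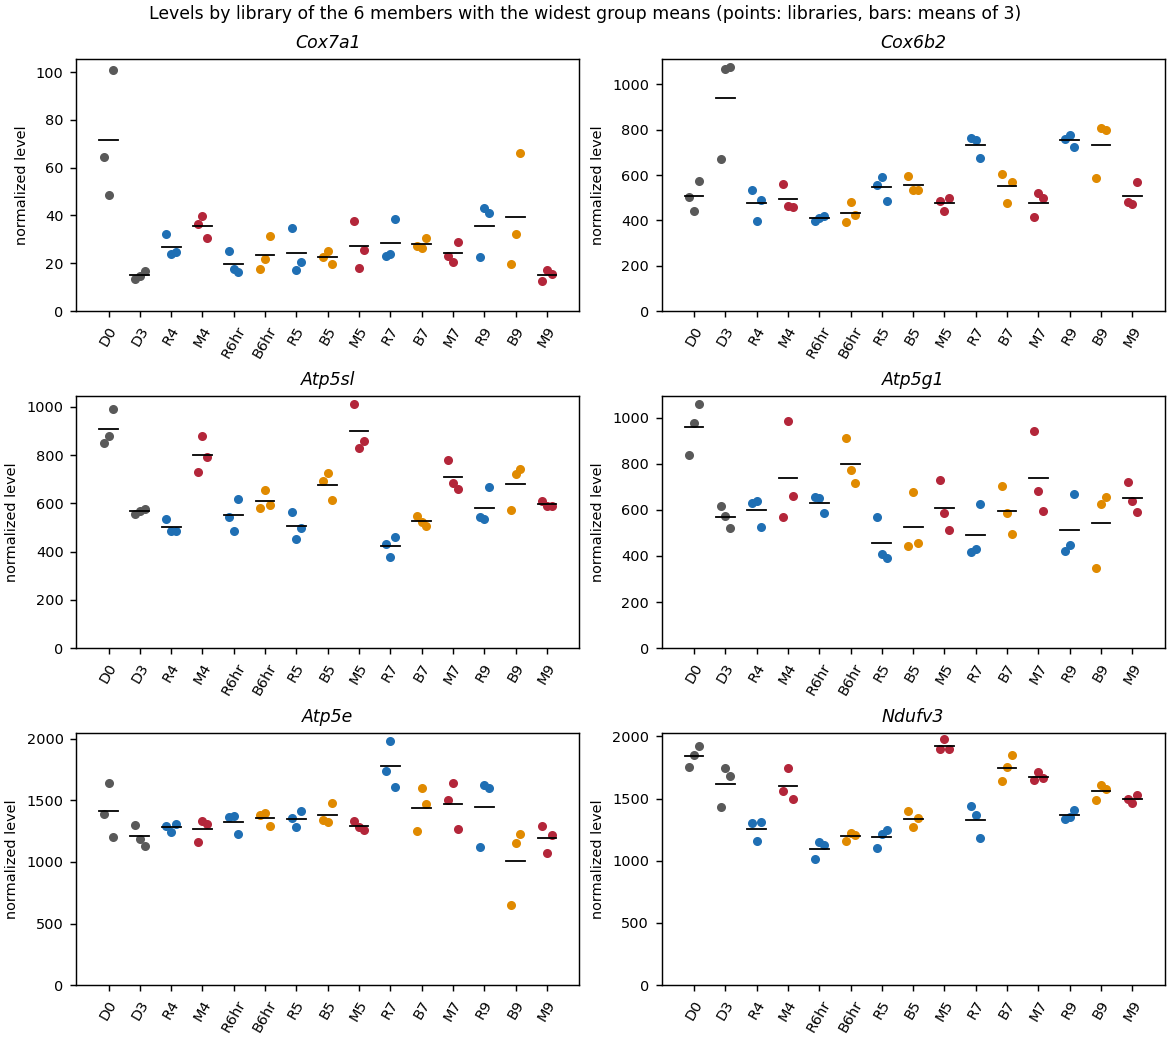
Normalized levels (vertical axes, from 0, no stated unit) of the 6 genes with the widest range of group means, in every library of the 15 groups; points are libraries and bars are means of 3. Atp5sl and Ndufv3 (left and right of the lower rows) lie higher in M4, M5 and M7 than in R4, R5 and R7, and Cox7a1 is highest in D0 and low in D3 and M9.

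At day 5, Ndufv3 stood at 1106, 1212 and 1245 in R5, at 1396, 1274 and 1344 in B5 and at 1902, 1977 and 1897 in M5. The M5 libraries lay above every R5 and B5 library. Ndufv3 rose by 0.70 in M5 over R5 (SE 0.08, limma adjusted p = 7.6e-09). Atp5sl stood at 565, 453 and 500 in R5, at 692, 726 and 615 in B5 and at 1013, 830 and 858 in M5. The 3 groups did not overlap and were ordered R5, B5, M5. Atp5sl rose by 0.83 in M5 over R5 (SE 0.11, limma adjusted p = 3.7e-07). Cell type markers differed between the same groups: 4 neural progenitor markers summed to 18344 to 24120 in R5 and 2167 to 3784 in M5, and 4 surface epithelial markers to 3450 to 4601 in R5 and 7286 to 9027 in M5. Their part in the Ndufv3 and Atp5sl differences was not tested.

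The differences from the B group at day 5 were among those that selected the table. They were 0.53 for Ndufv3 (SE 0.08) and 0.41 for Atp5sl (SE 0.11) in M5 over B5, and 0.42 for Atp5sl (SE 0.11, limma adjusted p = 0.019) in B5 over R5. For Ndufv3 the difference of B5 from R5 was 0.17 (SE 0.08) and did not pass (limma adjusted p = 0.17). For Ndufv3 the call in M5 over B5 held without any single library. For Atp5sl it ended without M5 library 1 (0.32, adjusted p = 0.087) or B5 library 3 (0.34, adjusted p = 0.08). The call for Atp5sl in B5 over R5 ended without any 1 of 4 libraries, B5 libraries 1 and 2 and R5 libraries 2 and 3, with a highest adjusted p of 0.13, and the authors' deposited table gives it a false discovery rate of 0.089.

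At day 4, after 24 h of treatment, Ndufv3 stood at 1304, 1159 and 1313 in R4 and at 1557, 1744 and 1496 in M4, a difference of 0.34 (SE 0.08). Atp5sl stood at 536, 484 and 485 in R4 and at 729, 881 and 793 in M4, a difference of 0.67 (SE 0.11). Neither pair of groups overlapped. Ndufa12 was the only other gene of the 24 to pass in M4 over R4, at 0.24, so that 3 of 24 passed, all higher in M4, where 14.1% of all genes passed, 6.76% as higher. The call for Ndufa12 ended without some single libraries, and those for Ndufv3 and Atp5sl did not.

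At day 7, Ndufv3 stood at 1438, 1367 and 1184 in R7, at 1639, 1756 and 1848 in B7 and at 1648, 1712 and 1667 in M7. All B7 and M7 libraries were above all R7 libraries, and B7 and M7 overlapped. Ndufv3 rose by 0.34 in M7 over R7 (SE 0.08, limma adjusted p = 4.7e-04), and its difference of B7 from R7 was 0.40. Atp5sl stood at 431, 379 and 460 in R7, at 546, 523 and 507 in B7 and at 782, 683 and 659 in M7. The groups were again separate and ordered R7, B7, M7. Atp5sl rose by 0.74 in M7 over R7 (SE 0.11, limma adjusted p = 2.1e-06).

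At day 9 neither gene passed between M and R. Atp5sl stood at 543, 537 and 669 in R9, at 571, 721 and 744 in B9 and at 612, 588 and 591 in M9, and the groups overlapped. Its difference of M9 from R9 was 0.04 (95% interval -0.18 to 0.27). Ndufv3 stood at 1332, 1348 and 1411 in R9, at 1487, 1610 and 1575 in B9 and at 1499, 1465 and 1528 in M9. All B9 and M9 libraries were above all R9 libraries, and B9 and M9 overlapped. The difference of M9 from R9 for Ndufv3 was 0.14 (95% interval -0.02 to 0.29). Within the R groups, Atp5sl rose by 0.46 from R7 to R9 (SE 0.11, limma adjusted p = 3.9e-03), and within the M groups its fall by 0.34 from M5 to M7 had a limma adjusted p of 0.035.

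The change of the M against R difference between day 5 and day 9 was tested directly. Of the 24 genes, 7 passed, all with a lower M against R difference at day 9, where 38.9% of all genes passed in either direction and 17% in this one. In the authors' deposited table Cox7a1, Ndufa6, Ndufa10 and Ndufaf3 were lower in M9 than B9 with a false discovery rate under 0.1. Ndufv3, Atp5sl and Cox7a2l were higher in M5 than B5 with such a rate. Such levels push the change down, and they had a part in all 7 being listed, so the shared direction is a description only. The change of the difference was -0.79 for Atp5sl (SE 0.16, limma adjusted p = 2.3e-04) and -0.56 for Ndufv3 (SE 0.11, limma adjusted p = 1.3e-04). It was -0.61 for Ndufaf3 and -1.30 for Cox7a1, the latter with a limma adjusted p of 0.029 that became 0.13 after quantile normalization. The same test of the B against R difference found 0 of the 24 genes by limma, with 2 at an unadjusted p under 0.05, where 2.11% of all genes passed.

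In all, 6 of the 24 genes passed in M5 against R5, 4 higher and 2 lower, where 44.3% of all genes passed, 21% as higher and 23.3% as lower. Besides Ndufv3 and Atp5sl, Atp5j, a part of the stalk of ATP synthase, rose by 0.25 and Cox7a2l by 0.21. Ndufaf5, an assembly factor that modifies a core complex I subunit, stood at 396, 401 and 421 in R5 and at 285, 308 and 318 in M5. Its groups were well apart, and Ndufaf5 fell by 0.42 (SE 0.12, limma adjusted p = 5.9e-03), a call lost after quantile normalization (-0.29, adjusted p = 0.15). Uqcrq fell by 0.36 (SE 0.14, limma adjusted p = 0.037), also lost after quantile normalization (-0.28, adjusted p = 0.18). The calls for Ndufv3, Atp5sl and Ndufaf5 held without any single library, and the other 3 did not.

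In M7 against R7, 7 of the 24 genes passed, 3 higher and 4 lower, where 43.5% of all genes passed, 22.9% as higher and 20.6% as lower. Cox6b2 stood at 765, 756 and 674 in R7, at 604, 477 and 568 in B7 and at 413, 519 and 499 in M7. All R7 libraries were above all B7 and M7 libraries, and B7 and M7 overlapped. Cox6b2 fell by 0.62 in M7 against R7 (SE 0.15, limma adjusted p = 8.9e-04). Ndufaf5 fell by 0.46 (SE 0.12, limma adjusted p = 2.8e-03), from 387, 434 and 373 in R7 to 285, 303 and 279 in M7. Ndufaf3 fell by 0.31 and Ndufa12 by 0.21, and Atp5g1 rose by 0.59 with overlapping groups, all 3 with calls that ended after quantile normalization and without some single libraries. The other 4 calls held without any single library.

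For the comparisons that selected the table at days 5 and 7, the counts were as follows. In B5 against R5, 1 of 24 passed (5.99% of all genes, 2.76% as higher), which was Atp5sl, higher in B5. In M5 against B5, 3 of 24 passed, all higher in M5 (17.8% of all genes, 8.57% as higher): Ndufv3, Atp5sl and Cox7a2l. In B7 against R7, 3 of 24 passed (23.7% of all genes, 12.1% as higher and 11.6% as lower), with Ndufv3 and Atp5sl higher and Cox6b2 lower in B7, of which only the call for Ndufv3 held without any single library. The call for Atp5sl there also ended after quantile normalization (0.31, adjusted p = 0.12). In M7 against B7, 9 of 24 passed, 2 higher and 7 lower in M7 (41.6% of all genes, 21.7% as higher and 19.9% as lower). Those lower in M7 were the complex I subunits Ndufa6, Ndufa12 and Ndufb3, the assembly factors Ndufaf3 and Ndufaf5, the complex III subunit Uqcrq and Cox6a1, with differences from -0.24 to -0.37. Those higher were Atp5sl (0.43) and Ndufa2 (0.26). The calls for Ndufa12, Ndufb3 and Atp5sl held without any single library. Calls for Ndufa2, Ndufaf3 and Ndufaf5 ended after quantile normalization.

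The summed neuronal markers were 35093 to 48637 in B7, 3631 to 16557 in R7 and 1529 to 4862 in M7, and their part in the day 7 differences was not tested. At 6 h of BMP4, 0 of the 24 genes passed in B6hr against R6hr by limma over all libraries, with 1 at an unadjusted p under 0.05 and 0.0178% of all genes called. The authors' deposited table also had 0 of the 24 under a false discovery rate of 0.1 there. Libraries with the same number deviated together in these groups. A fit of these 6 libraries took the number as a block. In it 4 of the 24 passed, all higher in B6hr, where 25.9% of all genes passed in either direction. They were Uqcrq (0.26), Atp5g1 (0.33), Ndufb10 (0.20) and Uqcrc1 (0.19), with limma adjusted p from 0.012 to 0.045. The share of all genes that passed as higher was not counted, so these 4 are given as a description.

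**Figure D3:**
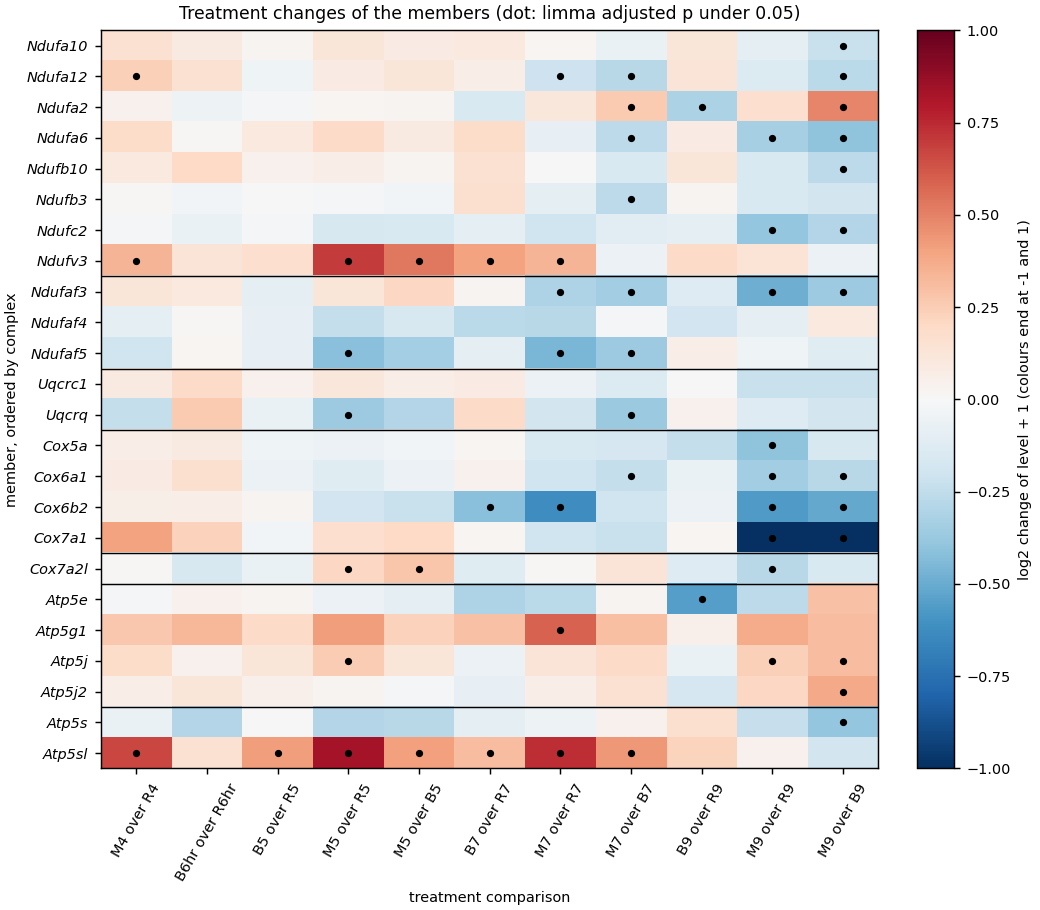
Log2 change of level + 1 for the 24 genes (rows, by complex) in the 11 treatment comparisons (columns, first group over second); dots mark a limma adjusted p under 0.05, and colours end at -1 and 1. Ndufv3 and Atp5sl are red in the columns of days 4, 5 and 7, except Ndufv3 in M7 over B7, and complex IV rows are blue in the columns of M9.

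At day 9 the 4 complex IV subunits in the table, of 18 in the list used, were lower in M9 than in R9. In M9 against R9, 9 of the 24 genes passed, 1 higher and 8 lower in M9, where 51% of all genes passed, 27.5% as higher and 23.5% as lower. Besides these 4, the genes that fell were Cox7a2l, the complex I subunits Ndufa6 and Ndufc2 and the assembly factor Ndufaf3. The median change of the 24 genes was -0.15, against 0.04 for all genes. R9 was not compared with M9 in selecting the table, but M9 entered that selection through its comparison with B9. In the authors' deposited table Cox6a1, Cox6b2 and Cox7a1 had false discovery rates of 0.0091, 0.0065 and 0.0026 there, so low levels in M9 had a part in their being listed. The same held for Ndufa6, Ndufc2 and Ndufaf3, with rates of 8.9e-04, 0.021 and 0.04. Atp5j, higher in M9 than in B9, had a rate of 0.089 there. Cox5a and Cox7a2l had rates of 0.19 and were not listed through that comparison. The other complex IV subunits are not analysed here.

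Cox7a1 stood at 22.6, 43 and 40.9 in R9 and at 12.7, 17.3 and 15.6 in M9. The lowest R9 library was above every M9 library, and Cox7a1 fell by 1.13 (SE 0.33, limma adjusted p = 5.8e-03). Cox6b2 stood at 757, 776 and 724 in R9 and at 482, 474 and 571 in M9, which were also separate. It fell by 0.57 (SE 0.15, limma adjusted p = 1.9e-03).

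Cox6a1 stood at 2961, 3168 and 3341 in R9 and at 2390, 2553 and 2472 in M9, without overlap, and fell by 0.35 (SE 0.08, limma adjusted p = 8.8e-04). Cox5a stood at 2784, 3383 and 3721 in R9 and at 2596, 2338 and 2521 in M9, again without overlap. Cox5a fell by 0.40 (SE 0.12, limma adjusted p = 6.3e-03), but the call ended without R9 library 3 (-0.31, adjusted p = 0.056). Ndufaf3 fell by 0.49, Ndufc2 by 0.39, Ndufa6 by 0.33 and Cox7a2l by 0.28. The only gene of the 24 higher in M9 than R9 was Atp5j (0.24, limma adjusted p = 0.039), which did not pass after quantile normalization (0.07, adjusted p = 0.6) or without some single libraries. Apart from Cox5a and Atp5j, the calls held without any single library.

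Markers of skeletal muscle, a tissue where Cox7a1 is known to be high, summed to 631 to 677 in R9, 261 to 436 in B9 and 76 to 190 in M9 over 5 listed genes. Over 7 genes, cardiac muscle markers summed to 514 to 685, 208 to 282 and 137 to 289. At day 7 the skeletal sum was 943 to 1454 in R7, 200 to 385 in B7 and 83 to 114 in M7. Cox7a1 had means of 28.5, 28.1 and 24.2 there. In D0 and D3, where Cox7a1 differed most, the skeletal sums overlapped, at 242 to 665 and 166 to 729. The part of these markers in the Cox7a1 differences was not tested.

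Cox6a1 and Cox7a1 are both small complex IV subunits that were lower in M9 than in R9. Their promoters are shown because the window of Cox6a1 holds the core motif of NRF1, a transcription factor known for its binding at respiratory genes, and that of Cox7a1 does not hold these letters. The window of Ndufaf4, the assembly factor that rose in D3, also holds it. The sequences are from RefSeq on GRCm38.p6, read 5′ to 3′ on the strand of the gene, limited to bases before the start that lie in no annotated exon, with the motif in capitals.
Cox6a1, chr5:115348982-115349128, minus strand: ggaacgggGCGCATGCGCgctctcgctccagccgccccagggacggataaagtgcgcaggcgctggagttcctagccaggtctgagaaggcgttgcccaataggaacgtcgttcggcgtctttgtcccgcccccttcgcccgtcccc
Cox7a1, chr7:30184001-30184143, plus strand: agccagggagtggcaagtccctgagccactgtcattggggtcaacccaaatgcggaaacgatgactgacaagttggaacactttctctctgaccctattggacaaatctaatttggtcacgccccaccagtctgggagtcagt
Ndufaf4, chr4:24897913-24898082, plus strand: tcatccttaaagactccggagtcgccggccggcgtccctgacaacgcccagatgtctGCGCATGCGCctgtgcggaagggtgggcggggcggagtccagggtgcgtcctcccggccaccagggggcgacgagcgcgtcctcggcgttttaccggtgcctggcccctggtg
The stretches of Cox6a1 and Ndufaf4 are 67.3% and 70.6% G or C, and that of Cox7a1 is 51.7%.

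The search covered 24 windows of 300 bases (250 before to 50 after the start) from 22 of the genes, on both strands. Uqcrq and Ndufa2 were not included. The NRF1 core, spelled by the capitals above, was in 4 windows (16.7%), those of Cox6a1, Uqcrc1, Ndufaf4 and Ndufaf5, against 0.971% of the 32851 promoter windows of RefSeq and 1.56% of the windows of genes in the table. The letters AAGATGGCG, a YY1 site, were in windows of 3 genes, Atp5j, Atp5j2 and Atp5sl. These are 4 windows (16.7%, against 1.4% of all and 1.92% of those of genes in the table), but the pair of Atp5sl windows overlap and hold the same site, which is counted for both. The letters CCGGAAG, an ETS site, were in 3 windows, those of Atp5e, Atp5j and Cox6a1 (12.5%, against 8.86% of all and 12.1% of those of genes in the table, a share close to that of the 24 genes). Matches of different motifs did not overlap, and a match is a description of sequence only.

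In M9 against B9, the comparison through which 14 of the 24 genes met the selection, 13 passed, 3 higher and 10 lower in M9, where 51.5% of all genes passed, 27.8% as higher and 23.7% as lower. Cox7a1 stood at 19.6, 32.3 and 66 in B9, above all M9 libraries, and was lower in M9 by 1.15 on the log2 scale (SE 0.33). Without B9 library 3, which holds the highest of these levels, that call ended (-0.70, adjusted p = 0.09). Cox6b2 (-0.51), Ndufa6 (-0.40), Atp5s (-0.39), Ndufc2 (-0.29), Cox6a1 (-0.28), Ndufa12 (-0.27), Ndufb10 (-0.26) and Ndufa10 (-0.22) were also lower, as was Ndufaf3 (-0.36). Of these, the calls for Cox6b2, Ndufa6, Ndufa12 and Ndufa10 held without any single library, and those for Atp5s and Ndufaf3 ended after quantile normalization. Those higher in M9 were Ndufa2 at 0.49, Atp5j2 at 0.38 and Atp5j at 0.31.

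These 3 genes were lowest in B9 of all groups. Ndufa2, a small complex I subunit, stood at 903, 1188 and 1137 in B9, at 1193, 1379 and 1453 in R9 and at 1591, 1471 and 1454 in M9. All B9 libraries were below all R9 and M9 libraries. Atp5j2, a membrane subunit of ATP synthase, stood at 1097, 1849 and 1633 in B9 and at 2009, 1940 and 1872 in M9, and Atp5j at 1876, 2301 and 2457 against 2699, 2771 and 2678. In each case B9 library 1 was the lowest. Without it, the differences were 0.16 for Atp5j2 (adjusted p = 0.23), 0.19 for Atp5j (adjusted p = 0.11) and 0.37 for Ndufa2 (adjusted p = 2.5e-03). After quantile normalization Atp5j2 and Atp5j also did not pass. Exons of Atp5j, Ndufa2, Cox5a and Ndufaf3 overlap exons of a gene on the opposite strand over 12.7%, 11.5%, 12.8% and 2.64% of their bases. Whether counting used strand is not given in the sources used here.

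B9 library 1 was low for the respiratory genes as a group. All 24 lay below their B9 mean in it, with a median deviation of -0.25 on the log2 scale, and 34 cytosolic ribosomal protein genes had a median deviation of -0.31, while all genes had 0.02. In R9 library 1, 22 of the 24 were below the R9 mean (median -0.16), and in R9 library 3, 22 were above it (median 0.14), with ribosomal medians of -0.24 and 0.28. In the 3 M9 libraries the medians were 0.04, -0.04 and 0.02. The number of genes passing in M9 against B9 went from 8 without B9 library 3 to 16 without B9 library 1.

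**Figure D4:**
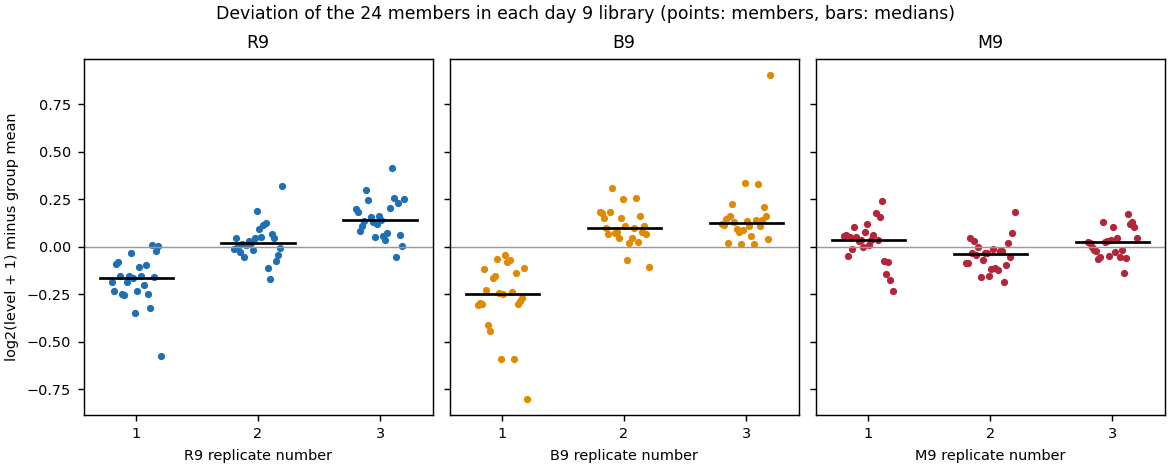
Deviation of log2(level + 1) from the group mean for the 24 genes (points) in each library of R9, B9 and M9; bars are medians over the 24 genes. B9 library 1 has all 24 points below 0 (median -0.25) and B9 library 3 has all above, while the medians of the M9 libraries stay between -0.04 and 0.04.

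Between B9 and R9, 2 of the 24 genes passed, both lower in B9, where 11.8% of all genes passed, 5.71% as lower. Atp5e, the smallest subunit of the catalytic head of ATP synthase, stood at 647, 1157 and 1229 in B9 and at 1121, 1628 and 1598 in R9. The groups overlapped, and library 1 was the lowest in both. Atp5e was lower by 0.55 on the log2 scale (SE 0.16, limma adjusted p = 0.018) and Ndufa2 by 0.32 (limma adjusted p = 0.025). Neither call held without B9 library 1, R9 library 2 or R9 library 3. Without B9 library 1 the difference for Ndufa2 was -0.20 (adjusted p = 0.2).

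The remaining comparisons followed each treatment over time. In R5 against R4, 0 of the 24 passed by limma, with 2 at an unadjusted p under 0.05 (12.7% of all genes passed). In R7 against R5, only Ndufa12 passed of the 24 (11.2% of all genes, 5.26% as higher), higher by 0.25 in R7, a call that ended on leaving out any library but R7 library 3 (highest adjusted p 0.11). In R9 against R7, 5 passed (20.3% of all genes, 9.14% as higher and 11.1% as lower): Atp5sl, Ndufc2 and Cox7a2l rose by 0.46, 0.26 and 0.24, and Atp5j and Ndufa12 fell by 0.29 and 0.21. The last 2 calls ended after quantile normalization, and the call for Atp5sl was the only 1 of the 5 to hold without any single library. Same-numbered libraries deviated together in R7 and R9, and with the number as a block in a fit of these 6 libraries 2 of the 24 passed.

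In B7 against B5, 5 of the 24 passed (31.2% of all genes, 15.8% as higher and 15.4% as lower). Uqcrq stood at 1863, 2200 and 1907 in B5 and at 2530, 2884 and 2488 in B7, and rose by 0.40 with no overlap (SE 0.14, limma adjusted p = 0.029). Ndufv3 rose by 0.38, Ndufa12 by 0.36 and Cox6a1 by 0.25, and Atp5sl fell by 0.36. Of these, the calls for Ndufv3 and Ndufa12 held without any single library. In B9 against B7, 6 passed (14.2% of all genes, 6.1% as higher and 8.13% as lower): Atp5s and Atp5sl rose by 0.46 and 0.36, and Atp5e, Ndufa2, Atp5j2 and Atp5j fell by 0.56, 0.36, 0.35 and 0.29. The 4 falls all ended without B9 library 1, and those of Ndufa2, Atp5j2 and Atp5j also after quantile normalization. The rises of Atp5s and Atp5sl ended without some other single libraries, and that of Atp5s also after quantile normalization (0.38, adjusted p = 0.058).

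In the M groups, 1 of the 24 passed in M5 against M4 (10.4% of all genes, 5.22% as higher), Ndufv3, which rose by 0.27. In M7 against M5, 3 passed (12.5% of all genes, 5.12% as lower), with Atp5sl, Ndufa6 and Cox7a2l lower by 0.34, 0.30 and 0.25 on the log2 scale. All 4 of these calls ended without some single library, and after quantile normalization those of Ndufv3 (0.24, adjusted p = 0.054) and of Atp5sl (-0.40, adjusted p = 0.064) also did. In M9 against M7, 0 passed by limma, with 3 at an unadjusted p under 0.05 (4% of all genes).

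**Figure D5:**
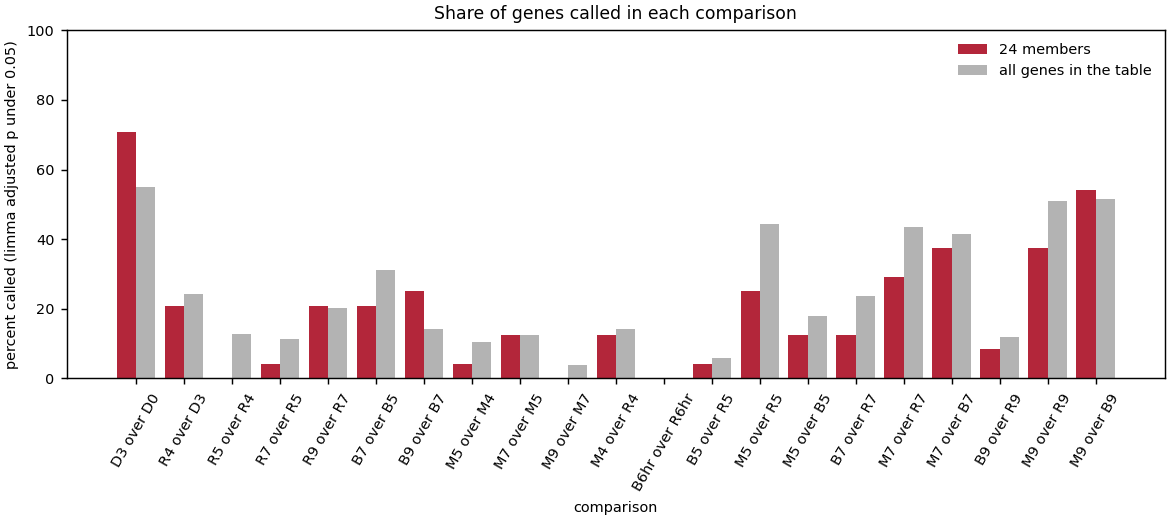
Percent of the 24 genes (red) and of all genes in the table (grey) with a limma adjusted p under 0.05 in each comparison of 2 groups. The share of the 24 was above that of all genes in D3 over D0 (17 of 24 against 54.9%) and B9 over B7 (6 of 24 against 14.2%). It was slightly above in M9 over B9 (13 of 24 against 51.5%) and R9 over R7 (5 of 24 against 20.3%). In other comparisons it was below, as in M5 over R5 (6 of 24 against 44.3%).

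Each of the 24 genes passed in at least 1 of the 21 comparisons of groups. The selection of the table made this likely in advance, because most of its 12 comparisons are among these 21. In all there were 99 calls, of which 46 held without any single library. The matching totals over all genes were not counted, so these are descriptions of the 24 genes only. Atp5sl passed in 12, Ndufv3 in 9, Ndufa12 in 8 and Cox7a2l in 7. At the other end, Uqcrc1 and Ndufaf4 passed only between D0 and D3, and Ndufb3 only between M7 and B7. Of the isoform partners of Cox7a1 and Cox6b2, Cox7a2 and Cox6b1 were not analysed here. Cox7a1 and Cox7a2l, related in sequence, went opposite ways from D0 to D3 and both fell in M9 against R9.

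Other genes of mitochondrial and energy metabolism moved in both directions. Of all genes, 54.9% passed in D3 against D0, 30.9% as higher and 24% as lower. In M9 against R9 the shares were 51%, 27.5% and 23.5%. The counts here and in the next paragraph are descriptions to be read beside these shares. Of 17 citric acid cycle genes, 10 were in the table, and in D3 against D0, 2 rose and 4 fell, among them Dlst by 0.57 upward and Idh3g by -0.47. In M9 against R9, 2 rose and 3 fell. Of 20 glycolysis genes, 14 were in the table, with 5 higher and 3 lower in D3 than D0. The median change of the 14 was 0.33. The 3 lower were Pfkp (-2.19) and the hexokinases Hk1 (-1.05) and Hk2 (-1.07). Of 20 mitochondrial ribosomal protein genes in the table, 2 rose and 8 fell in D3 against D0, including Mrpl39 (-0.56), and 1 rose and 5 fell in M9 against R9, including Mrpl34 (-0.37) and Mrpl24 (-0.56).

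Of 17 regulators of mitochondrial biogenesis, 9 were in the table. In D3 against D0, 2 rose and 2 fell, with the coactivator Ppargc1b at 0.84 and the mitochondrial RNA polymerase Polrmt at -0.68. In M9 against R9, 2 rose and 1 fell, with Gabpb2, a subunit of an ETS-family activator, at 0.80 and the mitochondrial DNA polymerase Polg at -0.28. Of 43 other assembly factors of the respiratory chain, 9 were in the table, with 2 higher and 2 lower in M9 than R9, among them Tmem126b at 0.44 and the copper chaperone Cox17 at -0.42. Of 16 hypoxia response genes, 15 were in the table, and 7 rose and 2 fell in M9 against R9, among them P4ha2 at 1.32 and Ddit4 at 1.17.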

How the data were processed

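Per the labels' protocols, mRNA libraries (NuGEN) were run on a NovaSeq. The submitters' processing notes list Picard, edgeR and the build mm10, with no role or version. Which aligner and counter were used is not given in the sources used here. Values per gene and library are a normalized level, a signal deposited by the authors with no stated unit. The authors also deposited log2 fold changes with p-values and false discovery rates for 12 comparisons, and score columns (headed fpkm and rank) that were not used here. Levels were not whole counts, so limma 3.58.1 in R 4.3.3 was used in place of a count test: log2(level + 1), trend and robust moderation, all 45 libraries, 1 coefficient per group, Benjamini-Hochberg over 11220 genes, called under 0.05. A filter of level 1 in 3 libraries removed 0 genes. Tested on simulated data with 100 changed genes of each size among 11220, the fit of M9 against B9 recovered 25% of log2 changes of 0.5 and 58% of those of 1. In the real comparison 51.5% of all genes passed, and with fewer changed genes the adjusted p is stricter. The simulated shares therefore do not give the share of changes missed in the real comparison or among the respiratory genes.

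The genes and lists were chosen with earlier results of these data known. Named genes were 1 defining subunit per complex where the table held it (only Uqcrc1 and Cox5a), isoform partners and the 6 widest ranges. Per comparison, up to 4 risen and 4 fallen genes without overlap were also named. Others were named to complete counts, after their values were seen. Same-numbered libraries deviated together (correlations over 0.1 in all 3 pairs) in B6hr with R6hr (0.586, 0.189, 0.465), R9 with R7 (0.506, 0.323, 0.736) and M9 with M7 (0.254, 0.279, 0.269). The pairing there comes from the data, not the labels. Alternatives were other pseudocounts, no filter, quantile normalization, fits of the compared libraries alone, a replicate block, each library left out, and, added after seeing the data, the authors' deposited test and libraries that stood apart left out. Coordinates are of whole protein-coding genes in GENCODE M21 on mm10. Promoter sequences are from RefSeq.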

Additional observations from a re-analysis of the deposited data

Results flagged for a closer look

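The difference of M from R changed between day 5 and day 9 by a direct test in limma for 7 of the 24 genes. The change was -1.30 for Cox7a1, -0.79 for Atp5sl, -0.61 for Ndufaf3, -0.56 for Ndufv3, -0.52 for Ndufa6, -0.49 for Cox7a2l and -0.22 for Ndufa10. Atp5sl and Ndufv3 passed at day 5 and not at day 9, and Cox7a1, Ndufaf3 and Ndufa6 passed at day 9 and not at day 5. Cox7a2l was higher in M5 than R5 and lower in M9 than R9, and Ndufa10 passed at neither day. The call for Cox7a1 ended when any of 6 libraries was left out (1 each of M5 and M9, 2 each of R5 and R9), and that for Ndufa10 when any of 8 was left out. Levels in M5 or M9 had a part in all 7 being listed, so the shared direction is a description only. The cause was not tested.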

How the results depend on the processing

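No named change reversed under any alternative run. Of 75 named changes, all kept their call with pseudocounts of 0.1 and 5, with no filter and with a replicate block over all libraries. Quantile normalization lost 20, fits of the compared libraries alone lost 42, and leaving out 1 library lost 123 of 474. The cause of these losses was not tested, except that fits of the compared libraries alone rest on fewer libraries. Quantile normalization moved the median of all genes by -0.12 in D3 against D0 and in the day 9 minus day 5 change of the M against R difference. Depth is unknown, so no limit from counting can be given.

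Counts of the 24 genes moved by over 1.5 times as follows. After quantile normalization 2 passed in R7 against R5, 0 in M5 against M4, 4 in M7 against R7 and 13 in the day 9 minus day 5 change of M against R. In fits of the compared libraries alone, 11 passed in D3 against D0, 6 in M9 against B9, 3 each in B7 against B5, M7 against R7 and M7 against B7, 2 in R4 against D3, and 1 each in M4 against R4 and M5 against B5. In such fits 0 passed in R7 against R5, R9 against R7, B9 against B7, M5 against M4, M7 against M5, B5 against R5, B7 against R7 and B9 against R9. By the authors' deposited test at a rate under 0.05, 2 passed in M7 against B7, 1 in B7 against R7, 1 in B9 against R9 and 0 in B5 against R5.

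With the replicate number as a block in fits of the compared libraries alone, 7 passed in D3 against D0, 5 in M7 against M5, 4 in B6hr against R6hr, 3 in M9 against B9, 2 in R9 against R7, and 1 each in B7 against B5 and M5 against B5. With this block 0 passed in R4 against D3, R7 against R5, B9 against B7, M5 against M4, M4 against R4, B5 against R5, B7 against R7 and M7 against R7. With the block over all libraries 2 passed in M5 against M4, and no other count moved by over 1.5 times. Outside the 3 paired comparisons the libraries share only a number.

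Leaving out 1 library at a time gave 14 to 18 genes in D3 against D0, 4 to 5 in R4 against D3, 0 to 1 in R7 against R5 and in B5 against R5, 1 to 5 in R9 against R7 and in B9 against B7, 3 to 5 in B7 against B5, 0 to 2 in M5 against M4 and in B9 against R9, 1 to 2 in M7 against M5 and 2 to 3 in M4 against R4. It gave 3 to 6 in M5 against R5, 2 to 4 in M5 against B5, 1 to 3 in B7 against R7, 4 to 8 in M7 against R7, 5 to 7 in M7 against B7, 8 to 12 in M9 against R9, 8 to 16 in M9 against B9 and 5 to 10 in the day 9 minus day 5 change of M against R.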
